A study of Mus musculus with 4 samples.

Results

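Genes that move iron and heme through cells were followed in white adipose tissue of mice on a high fat diet (HFD) and of mice on a low fat diet (LFD). The 10 genes were Hmox1, Fth1, Ftl1, Tfrc, Trf, Slc11a1, Slc11a2, Steap4, Slc40a1 and Cp, taken as every non-control probe whose gene name on the array is one of these symbols. They had 15 of the 41174 probes and 10 of the 27617 gene names on the array. Of the 15 probes 14 passed the filter on dim spots, which kept 26054 probes of 17736 genes, so all 10 genes were tested. HFD tissue came from female C57BL/6 mice, an inbred laboratory strain, given CLEA Japan's High fat diet 32 for 18 weeks from 8 weeks of age. LFD tissue came from female C57BL/6 mice of the same age kept on CE2, the standard diet of the colony. Each diet had 2 samples, each mixed from 3 mice, and each sample was hybridised to its own 1-colour array. No source used here names the fat depot or says whether the samples of a diet came from separate pools, so every p-value rests on a spread between samples that may be technical.

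Iron enters most cells bound to transferrin, through the transferrin receptor, and is reduced and moved across the endosomal membrane by a divalent metal transporter. Iron that is not used at once is stored inside ferritin, a shell of heavy and light chains, and leaves the cell through ferroportin, helped by copper-containing ferroxidases that oxidise it for binding to transferrin. Macrophages also take up heme from worn-out red cells, break it open with heme oxygenase and recycle its iron. Iron regulatory proteins also act on several of these RNAs: they block translation of ferritin and ferroportin, which an RNA level does not show, and they stabilise the transferrin receptor RNA, which it can show.

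All 4 arrays lay on 1 slide and were scanned in 1 scan, and no spot was saturated. The HFD arrays had 27251 and 21312 probes well above background, against 26420 and 27937 for the LFD arrays, so HFD replicate 2 had the fewest. The 7 fat cell markers Adipoq, Lep, Plin1, Fabp4, Lpl, Cidec and Retn were well above background on all 4 arrays. Of these, Retn alone passed the test described below, and it was lower in HFD (log2 change -0.90). Lep had the largest change of the 7, a log2 change of 2.18 with diets that did not overlap, and did not pass (limma adjusted p = 0.0728). In mixed tissue, more or fewer cells of a type cannot be told apart from more or less RNA per cell.

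The comparison asked which of these genes differed in fat between the diets. Hmox1 and Slc11a1 were 2.67-fold and 2.88-fold higher in HFD, and Cp and Trf were 2.89-fold and 1.76-fold lower in HFD. The other 6 genes did not pass the test. Levels are given as log2 of the spot's processed signal minus that of the array's 75th percentile, so a difference of 1 is 2-fold, and they compare arrays but not genes. The test was limma's moderated test, with p-values adjusted over the tested probes by Benjamini and Hochberg's method and called under 0.05. A gene is represented by its brightest tested probe. The 2 of 10 genes that were higher stand beside 5.75% of all tested genes, and the 2 that were lower beside 5.61%. The diets did not overlap for 8 of the 10 genes, against 68.9% of all tested genes. In 4 of these 8 the HFD arrays were the higher ones and in 4 the lower ones, against 36.2% and 32.7% of all tested genes, which gives counts close to the background. The median log2 change was 0.08 over the 10 genes and 0.02 over all tested genes, and 5 of the 10 changes were above 0.

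**Figure D1:**
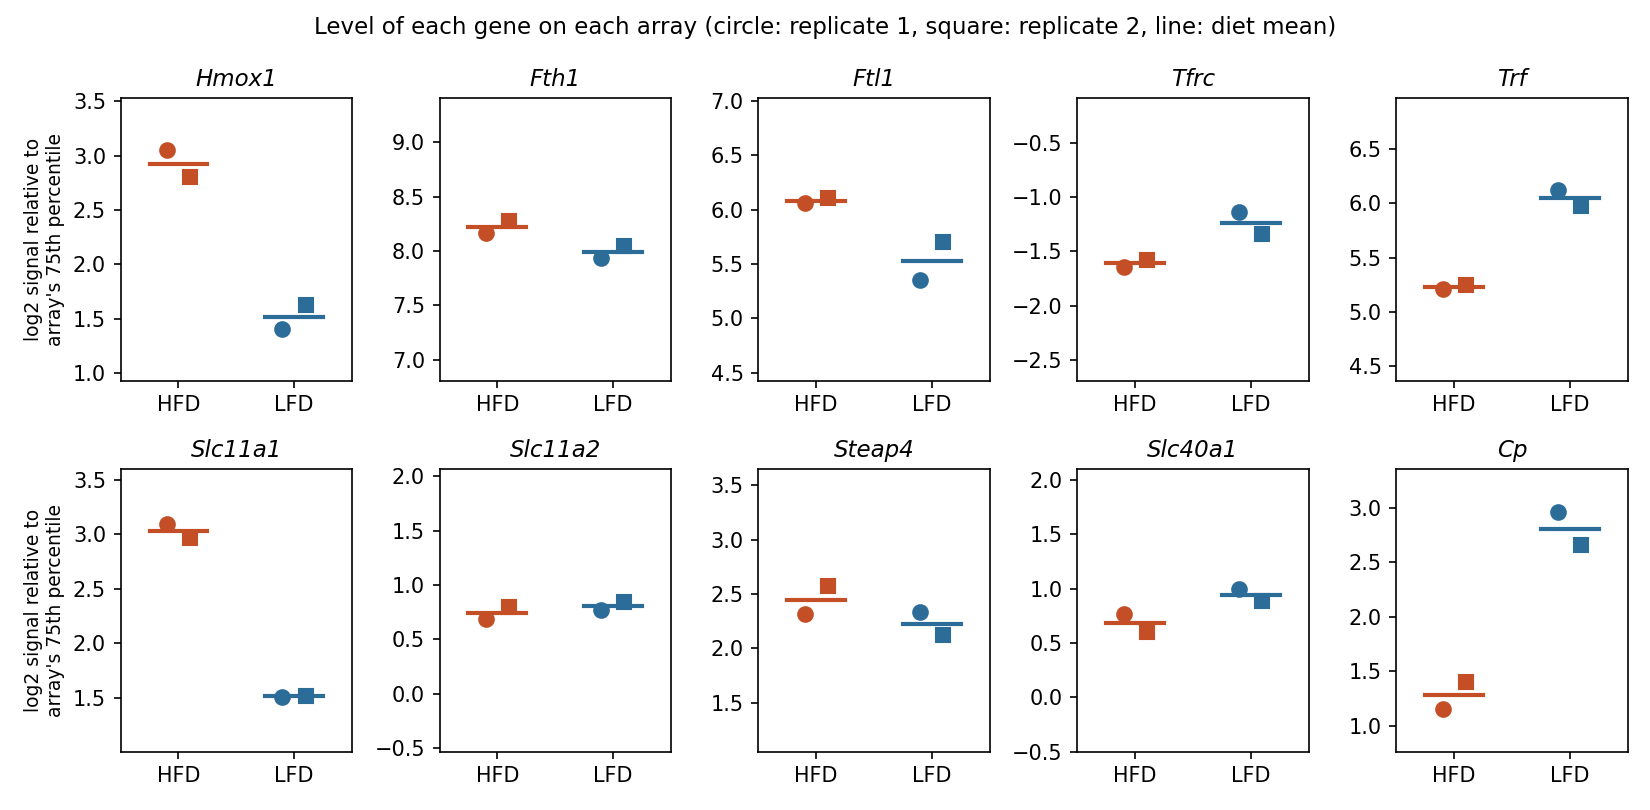
Level of each gene on each array, in log2 units relative to the array's 75th percentile, with HFD on the left and LFD on the right of each panel. Every panel spans the same 2.6 log2 units; the diets lie furthest apart for Hmox1, Slc11a1 and Cp and overlap for Slc11a2 and Steap4.

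Hmox1 encodes heme oxygenase 1, the inducible enzyme that opens the heme ring and frees its iron, carbon monoxide and biliverdin. Its log2 level was 3.06 and 2.80 on the HFD arrays, against 1.40 and 1.62 on the LFD arrays. Both HFD arrays lay above both LFD arrays, by more than the distance between arrays of 1 diet. The log2 change was 1.41 (SE 0.15, 95% confidence interval 1.02 to 1.81, limma adjusted p = 0.0210). The change was 1.29 to 1.54 with 1 array left out, but the call needed all 4 arrays, as the adjusted p in limma was 0.0725 without HFD replicate 1, 0.0825 without HFD replicate 2, 0.0504 without LFD replicate 2 and 0.0600 without LFD replicate 1. This Hmox1 probe lies at chr8:77624207-77624266 of the mouse build mm9, as the array files give it. A second Hmox1 probe, at chr8:77620085-77620144 and designed on another transcript, was not well above background on any array and was not tested.

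The ferritin genes lay slightly higher in HFD without passing the test. Ftl1 encodes the light chain, which helps iron settle into the ferritin core. On the log2 scale it stood at 6.06 and 6.10 on the HFD arrays, against 5.35 and 5.71 on the LFD arrays. The diets did not overlap, but the LFD arrays differed by 0.25 (SD), and the log2 change of 0.55 (SE 0.15, 95% confidence interval 0.14 to 0.97) had a limma adjusted p of 0.0896. Under limma's trended, robust variance model Ftl1 passed (adjusted p = 0.0373).

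Fth1 encodes the heavy chain, the ferroxidase that loads iron into ferritin. The HFD arrays read 8.16 and 8.28 on the log2 scale for Fth1, against 7.94 and 8.05 on the LFD arrays. The diets did not overlap, and the log2 change was 0.22 (SE 0.11, 95% confidence interval -0.06 to 0.51, limma adjusted p = 0.2131). The interval leaves room for a fold between 0.958 and 1.43. The raw signal of this probe reached 28.3% of the scanner's saturation value, so its brightness was within range. The RefSeq gene table used here lists pseudogenes of both ferritin genes, Fth-ps2 and Fth-ps3 for the heavy chain and Ftl1-ps1 and Ftl1-ps2 for the light chain. A probe cannot tell near-identical transcripts apart, so the ferritin values are uncertain as values of single genes.

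For uptake through transferrin, the ligand fell and the receptor did not pass. Trf encodes transferrin, the iron carrier of plasma, which fat also transcribes. Its log2 level was 5.21 and 5.25 on the HFD arrays, against 6.13 and 5.97 on the LFD arrays. The HFD arrays lay close together and below both LFD arrays, with a log2 change of -0.82 (SE 0.10, 95% confidence interval -1.10 to -0.53, limma adjusted p = 0.0269). It ranged from -0.90 to -0.74 with 1 array left out, and the call was lost each time, with a limma adjusted p of 0.1188 without HFD replicate 1, 0.1475 without HFD replicate 2, 0.0671 without LFD replicate 1 and 0.0513 without LFD replicate 2.

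Tfrc encodes transferrin receptor 1, which brings iron-loaded transferrin into the cell. Its log2 level was -1.64 and -1.58 on the HFD arrays, against -1.14 and -1.34 on the LFD arrays. The diets did not overlap, and the change on the log2 scale was -0.37 (SE 0.12, 95% confidence interval -0.68 to -0.06, limma adjusted p = 0.1118). The Tfrc probe was spotted 10 times on each array, and the spots show the measurement error within an array. Their processed signals, before scaling between arrays, ran from 251 to 297 on HFD replicate 1 and from 237 to 280 on HFD replicate 2, against 335 to 406 on LFD replicate 1 and 314 to 358 on LFD replicate 2. Every spot of both HFD arrays was thus dimmer than every spot of both LFD arrays. Spots of 1 array share 1 RNA sample, so they narrow the error of that array and not that of the diet.

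The metal transporters of the Nramp family differed from each other in their values. Slc11a1 encodes Nramp1, a transporter of the phagosome membrane of macrophages and neutrophils that pumps metal ions such as iron and manganese out of the phagosome; C57BL/6 mice are known to carry an allele of it that leaves the protein without function. Log2 levels were 3.10 and 2.97 on the HFD arrays, against 1.5025 and 1.518 on the LFD arrays. Both HFD arrays lay above both LFD arrays, and arrays of 1 diet differed by little (SD 0.09 in HFD and 0.01 in LFD). The log2 change was 1.52 (SE 0.10, 95% confidence interval 1.25 to 1.80, limma adjusted p = 0.0139). It ranged from 1.46 to 1.59 with 1 array left out, and the call was lost when HFD replicate 1 (limma adjusted p = 0.0599) or HFD replicate 2 (limma adjusted p = 0.0662) was the one left out.

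Slc11a2 encodes the divalent metal transporter DMT1, which moves ferrous iron out of the endosome and, in the gut, into the enterocyte. Its brightest probe, with log2 levels of 0.69 and 0.80 on the HFD arrays against 0.77 and 0.84 on the LFD arrays, overlapped between the diets. The log2 change was -0.06 (SE 0.10, 95% confidence interval -0.33 to 0.21, limma adjusted p = 0.6881). The other two probes lay on the opposite side of 0. The probe designed on another transcript of the gene had a log2 change of 0.35 (SE 0.13, limma adjusted p = 0.1500), with diets that did not overlap. The third had 0.36 (SE 0.21, limma adjusted p = 0.2928). With the mean of the gene's probes the sign therefore turned, to 0.22 (limma adjusted p = 0.2473). No probe of Slc11a2 passed the test.

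Steap4 encodes a membrane reductase of iron and copper that is known in mouse fat for its link to inflammation and insulin sensitivity. Its brighter probe had log2 levels of 2.31 and 2.58 on the HFD arrays, against 2.34 and 2.12 on the LFD arrays, and the diets overlapped. The log2 change was 0.22 (SE 0.15, 95% confidence interval -0.18 to 0.62, limma adjusted p = 0.3505). The dimmer probe had 0.16 (SE 0.16, limma adjusted p = 0.5191), so both probes gave small values that are within the spread between arrays.

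On the export side, the transporter did not pass and the ferroxidase fell. Slc40a1 encodes ferroportin, the exporter of iron from vertebrate cells. Log2 levels of Slc40a1 were 0.76 and 0.60 on the HFD arrays, against 0.99 and 0.88 on the LFD arrays. The diets did not overlap, and the log2 change was -0.26 (SE 0.11, 95% confidence interval -0.56 to 0.05, limma adjusted p = 0.1916). Ferroportin protein is also removed from the membrane by the hormone hepcidin, which the RNA level does not reflect.

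Cp encodes ceruloplasmin, a copper protein that oxidises the iron leaving through ferroportin. Its brighter probe, at chr3:19889075-19889134 of mm9, had log2 levels of 1.15 and 1.40 on the HFD arrays, against 2.96 and 2.66 on the LFD arrays. Both HFD arrays lay far below both LFD arrays, with a log2 change of -1.53 (SE 0.16, 95% confidence interval -1.98 to -1.09, limma adjusted p = 0.0217). It ranged from -1.69 to -1.38 with 1 array left out, and the limma adjusted p was 0.0484 without LFD replicate 2, but 0.0568 without LFD replicate 1, 0.0747 without HFD replicate 1 and 0.0851 without HFD replicate 2. The dimmer probe, at chr3:19909387-19909446 and designed on another transcript, was lower by less. Its log2 levels were -1.15 and -0.83 on the HFD arrays, against -0.31 and -0.54 on the LFD arrays, with a log2 change of -0.57 (SE 0.16, limma adjusted p = 0.0979). With the mean of both probes the log2 change of Cp was -1.05, and it still passed.

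**Figure D2:**
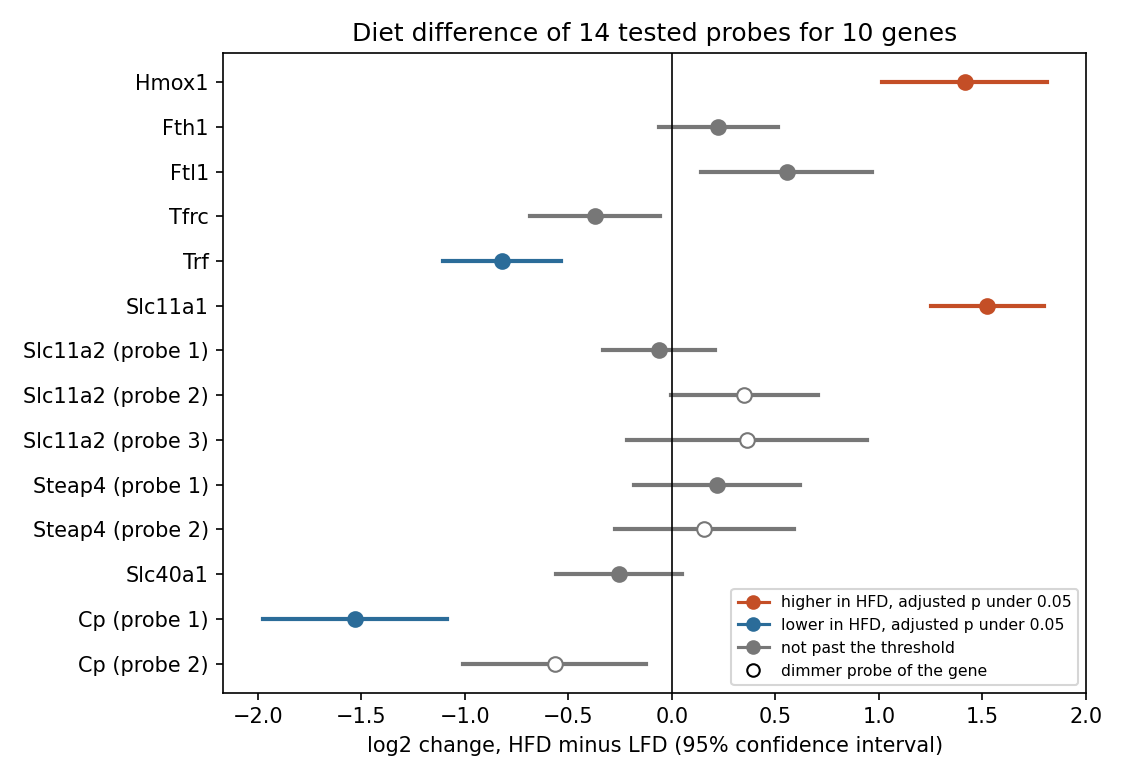
Log2 change, HFD minus LFD, of each tested probe of the 10 genes, with its 95% confidence interval; open circles are dimmer probes of a gene. Hmox1, Slc11a1, Cp (brighter probe) and Trf passed the adjusted threshold, and the intervals of Ftl1, Tfrc and the dimmer Cp probe leave out 0 without adjustment.

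A probe reports only the transcripts that hold its 60 bases. Neither Steap4 probe passed the test. Shown here are the probe sequences of Cp (brighter probe) and Trf, which both fell, and of the dimmer Steap4 probe. They are written 5′ to 3′ as the array files list them, in lower case. The Trf probe covers 616 bases of the genome (chr9:103117569-103118184, mm9, minus strand) and the Steap4 probe 1782 bases (chr5:7978532-7980313, plus strand), so each crosses at least 1 splice junction, while the Cp probe lies in 1 block on the plus strand. No gene annotation of mm9 was used here.
Cp: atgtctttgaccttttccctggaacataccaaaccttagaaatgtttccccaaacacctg
Trf: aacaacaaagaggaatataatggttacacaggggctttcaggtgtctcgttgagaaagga
Steap4: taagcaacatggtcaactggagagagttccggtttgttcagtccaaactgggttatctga

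RefSeq's promoter table, in build GRCm38.p6, held 6 of the 10 genes and not Hmox1, Slc40a1, Slc11a2 or Trf. The 250 bases before each start were searched on both strands for the antioxidant response element TGACNNNGC, the AP-1 site TGANTCA and the C/EBP site TTGCNNAA. Of 32851 promoters in the table, 10.2% held the first, 6.75% the second and 9.56% the third. Some of the 6 genes have 2 listed starts. The antioxidant response element was found in none of them, the AP-1 site at 1 start of Cp, and the C/EBP site at 1 start each of Fth1, Cp and Steap4. The promoter of Cp, the gene with the deepest fall of the 10, is printed for the start with the C/EBP match, which is in capitals; its other start, which holds the AP-1 match, is not printed. It starts at position 19956999 and ends at 19957248 on the plus strand of chromosome 3 in GRCm38.p6, and it belongs to the more downstream start of those listed for the gene. The match is a description of letters and not a binding site.
Cp promoter: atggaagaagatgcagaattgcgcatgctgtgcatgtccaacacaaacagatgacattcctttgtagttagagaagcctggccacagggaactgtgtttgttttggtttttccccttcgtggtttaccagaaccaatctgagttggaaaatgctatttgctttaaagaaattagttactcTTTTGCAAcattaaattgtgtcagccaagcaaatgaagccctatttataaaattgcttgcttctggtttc

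A list of 56 other genes of heme and iron handling sets these 10 in their pathways. Of the 53 tested, 5 were higher in HFD, 7 were lower and 41 did not pass, with a median log2 change of -0.05 against 0.02 over all tested genes. The shares of all tested genes are the 5.75% and 5.61% given above. Steap2, Lcn2 and Hamp, which encodes hepcidin, did not pass the filter on dim probes. Without HFD replicate 1, and likewise without HFD replicate 2, 0 were higher and 0 lower. Leaving out LFD replicate 1 gave 2 higher and 0 lower, and leaving out LFD replicate 2 gave 5 higher and 1 lower.

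Of 9 genes of heme synthesis, 1 was higher, 1 was lower and 7 did not pass (median log2 change -0.12). Alas1, the rate-limiting first enzyme outside red cell precursors, had log2 levels of 4.56 and 4.59 in HFD and 4.07 and 4.05 in LFD. It was 1.43-fold higher in HFD (log2 change 0.52, SE 0.09, limma adjusted p = 0.0435). That call was lost in 8 of 15 alternatives, among them median scaling (limma adjusted p = 0.0628) and the mean of its probes (limma adjusted p = 0.0526). Alad, the next enzyme, had log2 levels of 2.53 and 2.51 in HFD and 3.27 and 3.35 in LFD, and was 1.73-fold lower in HFD (log2 change -0.79, limma adjusted p = 0.0244).

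Of 12 genes of heme breakdown and transport, by their brightest probes, 2 were higher, 3 were lower and 7 did not pass (median log2 change 0.27). Slc48a1 is among the 7, with a log2 change of 0.96 by its brightest probe (limma adjusted p = 0.0513). Its other probe was higher, with a log2 change of 0.84. Blvra, the biliverdin reductase that acts after heme oxygenase, rose beside Hmox1. Its log2 levels were 2.39 and 2.34 in HFD and 1.11 and 1.41 in LFD, a 2.16-fold difference (limma adjusted p = 0.0255). Hp encodes haptoglobin, the plasma protein that binds free haemoglobin. It was 2.23-fold higher in HFD (log2 change 1.16, SE 0.10, limma adjusted p = 0.0167). Cd163, the macrophage receptor for the haptoglobin and haemoglobin complex, was 1.89-fold lower in HFD (log2 change -0.92, SE 0.09, limma adjusted p = 0.0202), with log2 levels of 2.24 and 2.29 in HFD and 3.19 and 3.18 in LFD. So the ligand and its receptor passed in opposite directions.

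Flvcr2, a membrane transporter first described as a heme importer, was 4.83-fold lower in HFD (log2 change -2.27, SE 0.21, limma adjusted p = 0.0183). Its log2 levels were -3.11 and -3.57 in HFD, where 1 of 2 arrays was well above background, and -0.91 and -1.23 in LFD. Under normexp background correction with an offset of 50 the log2 change was -1.21. Pgrmc1, a heme-binding membrane protein, was 1.62-fold lower in HFD (limma adjusted p = 0.0340).

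Among 9 tested genes of iron uptake, reduction and oxidation, 1 was higher, none was lower and 8 did not pass (median log2 change 0.37). Tfr2, a transferrin receptor best known from liver, where it senses iron-loaded transferrin, had the largest change of the list. Its log2 levels were 2.97 and 2.72 in HFD and 0.47 and -0.15 in LFD. It was 6.42-fold higher in HFD (log2 change 2.68, SE 0.24, limma adjusted p = 0.0179). Heph, which encodes hephaestin, a ferroxidase related to ceruloplasmin, had a log2 change of 0.51 (SE 0.10, limma adjusted p = 0.0529), on the opposite side of 0 from that of Cp. Heph passed in 3 of 15 alternatives and not in the other 12. The 3 were normexp (limma adjusted p = 0.0396), probes above background on all 4 arrays (limma adjusted p = 0.0311) and the trended, robust variance model (limma adjusted p = 0.0139).

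Of 13 tested regulators of iron and ferritin, 1 was higher, 1 was lower and 11 did not pass (median log2 change -0.10). Hfe, a membrane protein that binds the transferrin receptor, was 1.80-fold higher in HFD (log2 change 0.85, SE 0.14, limma adjusted p = 0.0410), with log2 levels of 3.63 and 3.64 in HFD and 2.62 and 2.95 in LFD; with the mean of its probes the limma adjusted p was 0.0501. Hjv, which encodes hemojuvelin, a coreceptor upstream of hepcidin in liver, was at least 1.79-fold lower in HFD (limma adjusted p = 0.0215). The fold is a lower bound because neither HFD array had this probe well above background; the LFD mean was set against the mean of, per HFD array, the higher of the probe's signal and the dimmest signal well above background. With normexp the log2 change of Hjv was -0.35 and did not pass (limma adjusted p = 0.1463). Pcbp1, an iron chaperone that delivers iron to ferritin, had a log2 change of 0.12 (limma adjusted p = 0.4243).

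Of 10 genes of mitochondrial iron, 2 were lower, none was higher and 8 did not pass (median log2 change -0.09). Fdx1, a ferredoxin that carries electrons for steroid and iron-sulphur cluster synthesis, was 1.69-fold lower in HFD (log2 change -0.76, SE 0.11, limma adjusted p = 0.0343), and each of its 3 probes passed. Iscu, the scaffold on which iron-sulphur clusters are built, had a log2 change of 0.46 (SE 0.12, limma adjusted p = 0.0872).

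**Figure D3:**
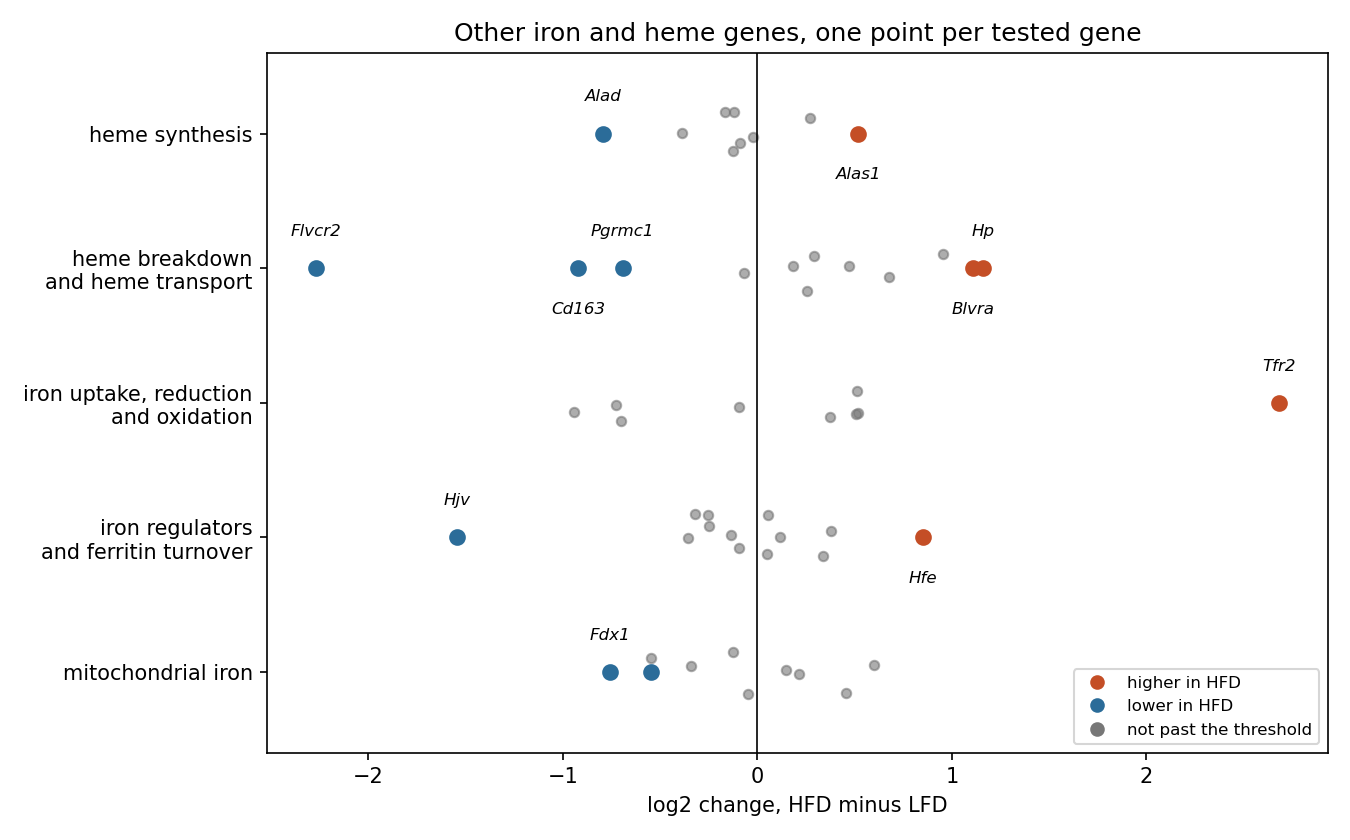
Log2 change, HFD minus LFD, of the 53 other iron and heme genes tested, 1 point per gene, by list; coloured points passed the adjusted threshold, and those the text describes are named. Tfr2 lies furthest to the right and Flvcr2 furthest to the left, and 41 genes did not pass.

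Markers of cell types were read beside these changes. Of 8 macrophage markers, Cd68 (log2 change 2.28), Adgre1 (1.65), Fcgr1 (1.41), Itgam (1.14) and Csf1r (0.80) were higher and none was lower, with a summed level, as a multiple of the array's 75th percentile, of 249 and 264 on the HFD arrays and 178 and 162 on the LFD arrays. Lyz2 made up most of that sum. Its brightest probe had log2 levels of 7.51 and 7.63 in HFD and 7.22 and 7.08 in LFD, and did not pass (limma adjusted p = 0.0817). The other Lyz2 probe was higher, with a log2 change of 1.32. Hmox1, Slc11a1 and Blvra were higher on the same arrays. Of 6 markers of resident macrophages, Cd163, which is also in the pathway list, Timd4 and Lyve1 were lower and none was higher. Sums of the 6 were 16.7 and 16.5 in HFD and 22.3 and 19.6 in LFD, mostly from Folr2 and Cd163. Most of the fall in these sums came from Cd163. Timd4 was well above background on only 1 of 2 HFD arrays. The other 3, Folr2, Vsig4 and Spic, had log2 changes of 0.22, 0.29 and 0.42 and did not pass, and the diets did not overlap for Vsig4 and Spic. Neutrophil markers were higher in 2 of 4 tested genes, S100a8 (log2 change 3.51) and Csf3r (0.90). S100a9 (0.30) and Mpo (0.45) did not pass, and Mpo was well above background on only 1 of 2 HFD arrays. The HFD arrays lay above the LFD arrays for all 4, as they did for 36.2% of all tested genes. Ngp and Camp were not well above background on any array. Sums of the neutrophil markers were 2.23 and 2.26 in HFD and 0.964 and 0.801 in LFD, and most of the rise came from S100a8. The part of these cells in the changes of Hmox1, Slc11a1 and Blvra was not tested.

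The 7 mesothelium markers Krt7, Lrrn4, Krt19, Upk3b, Muc16, Wt1 and Msln were all lower in HFD, by log2 changes between -2.24 and -0.99, with sums of 11.6 and 9.14 in HFD and 29.9 and 31.9 in LFD, beside the falls of Cp and Trf. Of 7 fibroblast and preadipocyte markers, Pdgfra (log2 change -0.70) and Dpp4 (-0.82) were lower and none was higher by its brightest probe. Col1a1 had a log2 change of 0.61 by that probe (limma adjusted p = 0.0508), with diets that did not overlap, and 2 of its 3 probes were higher. Of 2 Dcn probes, 1 was lower. Sums of the fibroblast and preadipocyte markers, mostly from Dcn, Col1a1 and Col3a1, were 295 and 290 in HFD and 327 and 308 in LFD. The part of these cells in the falls of Cp and Trf was not tested. Cp and Trf are also abundant liver transcripts. Of 6 hepatocyte markers, none of the 4 tested passed, and the sums overlapped between diets, at 1.55 and 5.07 in HFD and 3.11 and 9.18 in LFD. Blood was read from red cell markers, of which none of the 4 tested passed. For 3 of these 4 both HFD arrays lay above both LFD arrays, against 36.2% of all tested genes, and the median log2 change was 0.24. Sums of the red cell markers were 63.5 and 76.2 in HFD and 56.3 and 64.2 in LFD, and overlapped.

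**Figure D4:**
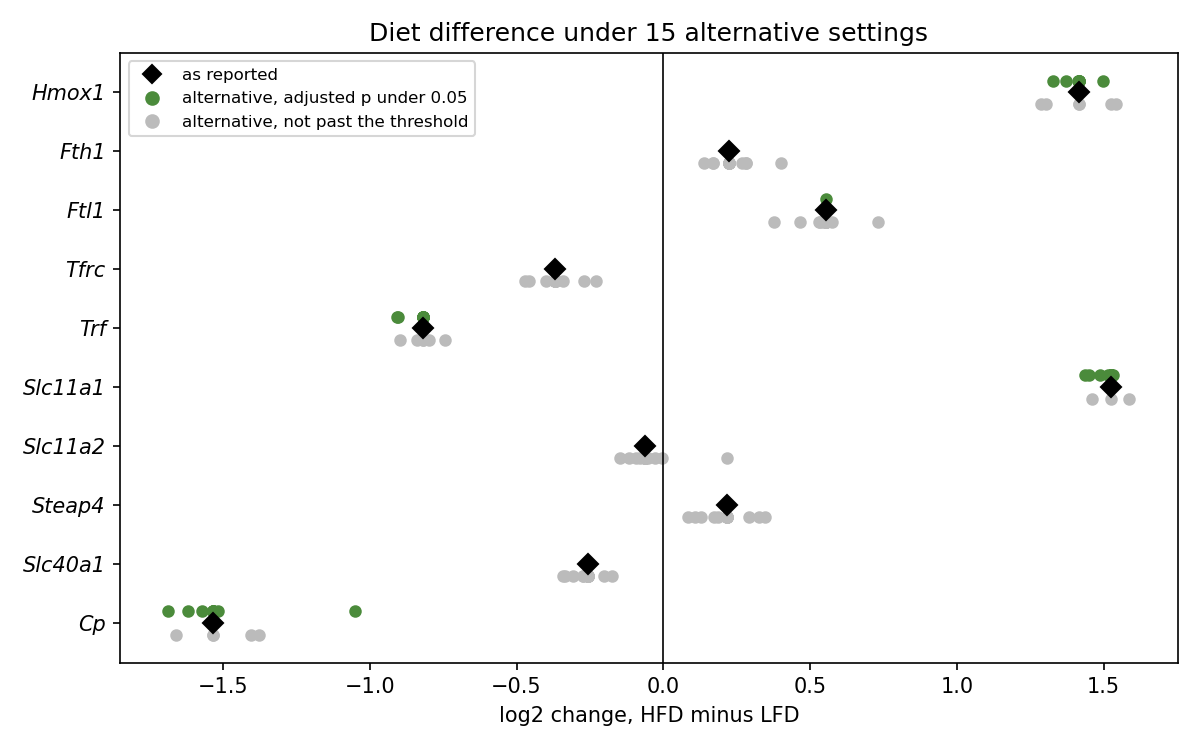
Log2 change, HFD minus LFD, of the 10 genes as reported (diamonds) and under 15 alternative settings (circles, above the line where the alternative passed the threshold and below it where it did not). Of the 10 genes, Slc11a2 is the one whose sign turned, with the mean of its probes.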

How the data were processed

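Spot intensities were deposited by the authors as Agilent Feature Extraction output, with background subtracted and signals detrended within each array per the file headers, and no scaling between arrays; the headers give version 11.0.1.1 and the submitters' processing notes 11.5.1.1. A value table, also deposited, gives each spot as a ratio of its signal to 1 number per array, close to the 75th percentile, found by dividing one by the other; its column medians were 0.130 and 0.131 (HFD) and 0.117 and 0.127 (LFD), and it is linear, uncentred and runs with the signal. Each sample gave 500 ng of RNA, per the labels. Control spots and spots flagged as outliers (60 to 115 per array) were left out, spots of a probe averaged as log2, and the array's 75th percentile over non-control spots subtracted. A probe was tested if either diet had it well above background on both of its arrays, in limma 3.58.1 (R 4.3.3, data.table version 1.17.8; lmFit and eBayes, two-sided), with 2 residual and 2.24 prior degrees of freedom. The procedure was tested on simulated data. Names were updated by accession in a RefSeq table of build GRCm38.p6 (27668 probes matched and 1843 changed symbol). All 10 genes, the genes of the 56-gene list that passed, and the brightest and most changed of each of its 5 groups are named; those below the filter and cell markers are named beside a count, and 1 gene that passed is not reported here. The genes and lists were chosen with earlier results of these data known. The number of arrays limits the precision. With 1 slide, no slide block could be fitted.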

Additional observations from a re-analysis of the deposited data

How the results depend on the processing

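The direction of 9 of the 10 genes held under all 15 alternatives; that of Slc11a2 turned with the mean of its probes (log2 change 0.22). The 2 higher and 2 lower calls among the 10 held with normexp, quantile scaling, median scaling, the authors' value table, probes above background on all 4 arrays, outlier spots retained, averaging over a gene's probes and adjustment over genes, the last chosen after seeing the data. With trend and robust options 3 were higher. With no filter on dim probes 0 were higher and 0 lower in limma. In that setting 5 of the 10 had an unadjusted p under 0.05 in limma, as had 5608 of all 27613 genes. With 1 array left out, 0 to 1 were higher and 0 to 1 lower; without either HFD array none passed, and 4 had an unadjusted p under 0.05, as had 4113 of all 17736 genes without HFD replicate 1 and 3434 without HFD replicate 2. The samples share replicate numbers, and the labels do not say whether these pair them. Deviations of same-numbered arrays from their diet means correlated with r = -0.0046 over tested probes. That value covers all tested probes together, where it shows no general shared replicate effect, and not single sets of genes. The sums of hepatocyte markers were higher in replicate 2 of both diets (1.55 and 5.07 in HFD, 3.11 and 9.18 in LFD). The macrophage sums moved in opposite ways in the diets. The correlation cannot settle how the samples were made. With the replicate number as a block, 1 of the 10 (Slc11a1) was higher and 0 lower (5 at an unadjusted p under 0.05, and 6216 of all genes), and 2 of the pathway genes were higher and 1 lower. Of the pathway genes, 8 were higher and 7 lower with normexp, 8 and 7 with probes above background on all arrays, and 10 and 10 with trend and robust options; 0 were higher and 0 lower with no filter; and 0 to 5 were higher and 0 to 1 lower with 1 array left out. Over all genes, median scaling gave 852 higher and 1334 lower calls, against 1019 and 995 as reported, 0 of each with no filter (5608 at an unadjusted p under 0.05), 1618 and 1238 with normexp, 1599 and 1310 with probes above background on all arrays, 1826 and 1808 with trend and robust options, and 220 and 208 with the block. With 1 array left out there were 10 and 9 without HFD replicate 1, 9 and 9 without HFD replicate 2, 426 and 267 without LFD replicate 1, and 470 and 341 without LFD replicate 2. The cause of these differences was not tested. Signals near background limit Hjv, Flvcr2, Timd4, Mpo and the second Hmox1 probe.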
